A study of Rattus norvegicus with 18 samples.

Results

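The 5' and 3' ends of rno-miR-128 were followed in small RNA of the developing rat brain, as 489 distinct sequence tags with 48 combinations of a 5' and a 3' end. rno-miR-128 was 1 of 621 known mature miRNA sequences with reads in these libraries. A tag was counted as an end variant, or isomiR, of rno-miR-128 when it was identical to the mature sequence over their common length, began no more than 3 nt from the mature 5' end, ran no more than 3 nt beyond the mature 3' end and was 18 nt or longer. This rule collected 15852885 reads, and none of the tags fitted another known miRNA. The tissue came from Sprague Dawley rats at 8 ages, labelled forebrain at embryonic days 10 and 13 (E10, E13) and somatosensory cortex at E17 and at postnatal days 0, 3, 7, 14 and 28 (P0, P3, P7, P14, P28). No animal was treated. P0 had 2 tissue samples and each other age 1, and each of the 9 tissue samples was sequenced in 2 runs, which are technical replicates and were averaged. The number of animals behind a tissue sample was not given in the sources used here. For E10 and E13 the study's methods speak of all of the cortex where the labels say forebrain. For the later ages both name the somatosensory cortex, in the methods as the main part of the dorsolateral cortex taken. Below, the samples of E10 and E13 are called forebrain and those from E17 on cortex, as labelled. By either account the age and the dissected tissue change together between E13 and E17 and cannot be told apart. P-values measure the spread between these 9 samples.

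rno-miR-128 is a miRNA enriched in neurons of the brain and is made from a pair of loci whose hairpins carry the same mature sequence on their 3' arm. Bases 2 to 8 of a miRNA, the seed, choose its targets, so a shifted 5' end changes the seed, while a changed 3' end leaves it as it is. The 3' end can be extended by imprecise cleavage of the hairpin, which leaves bases that the hairpin encodes, or by enzymes that add A or U to the finished molecule, and it can be shortened by exonucleases. Sequences are written as DNA, with T for U, as the tags were deposited.

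The mature sequence with its seed in capitals, and the same stretch in both hairpins with the 3 flanking bases on each side in capitals, show which added bases a hairpin could have supplied. Sequences and positions are from RefSeq on GRCr8.
rno-miR-128-3p: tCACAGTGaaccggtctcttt
Mir128-1: TTCtcacagtgaaccggtctctttTTC
Mir128-2: GTCtcacagtgaaccggtctctttCCC
In Mir128-1 the mature 21 nt lie on the plus strand at chr13:42251933-42251953, within the span of the protein-coding gene R3hdm1. In Mir128-2 they lie on the minus strand at chr8:120963807-120963827, within the spans of the protein-coding gene Arpp21 and of an annotated long non-coding RNA. Directly after the mature end Mir128-1 continues with TTC and Mir128-2 with CCC, so 1 or 2 added T are encoded only by Mir128-1, an added C only by Mir128-2, and an added A or G by neither. Directly before the mature 5' end both hairpins have C. Because the mature sequence itself ends in TTT, a read that lost a T and then gained one cannot be told from an unchanged read.

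The 8 most abundant tags held on average 95.1% of all rno-miR-128 reads (91.6% to 98.5% over the 18 libraries). They are shown with bases outside the mature sequence in capitals.
mature: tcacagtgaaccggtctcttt
1 added T: tcacagtgaaccggtctctttT
1 lost base: tcacagtgaaccggtctctt
2 lost bases: tcacagtgaaccggtctct
1 added A: tcacagtgaaccggtctctttA
3 lost bases: tcacagtgaaccggtctc
2 added T: tcacagtgaaccggtctctttTT
1 added C: tcacagtgaaccggtctctttC
The other named tags were rarer in the mean over all samples: the most abundant tag with a 5' end inside the mature sequence, the most abundant with an earlier 5' end, and the most abundant with an added G. At E10 the first of these held 1.26% of rno-miR-128 reads in the mean of both runs, more than the tags with 2 added T or 1 added C. In run 2 alone it was rarer than the tag with 1 added C. The first 2 are shown with bases 2 to 8, their shifted seed, in capitals.
2 lost bases at the 5' end: aCAGTGAAccggtctcttt
1 added base at the 5' end: cTCACAGTgaaccggtctcttt

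The level of rno-miR-128 over all end variants rose from E10 to P14. Levels are in TPM, the reads of a library's rno-miR-128 tags per 1000000 clean reads of that library. The means of both runs were 1654 TPM at E10, 5064 at E13, 23324 at E17, 67938 and 62980 in the P0 samples, 115320 at P3, 153470 at P7, 173758 at P14 and 145520 at P28. P0 averaged 65459 TPM ± 3506 (SD, n = 2). Run 1 read higher than run 2 in all 9 samples, by 1.27-fold at E10 to 2.97-fold at E13. With this difference between runs the 4 samples from P3 on overlapped (89411 to 221399 TPM over their libraries), while every library up to P0 lay below every library from P3 on. The rno-miR-128 reads behind the shares below numbered 20419 in E10 run 1 to 1993435 in P14 run 2, of 4899010 to 16590379 clean reads. The widest 95% Wilson interval of any share of a class of ends was 1.35 percentage points, for the mature tag in E10 run 1 (58.7%, 58.1 to 59.4), and such intervals cover counting error only. In tissue, fewer cells of a type and less RNA per cell cannot be told apart.

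**Figure D1:**
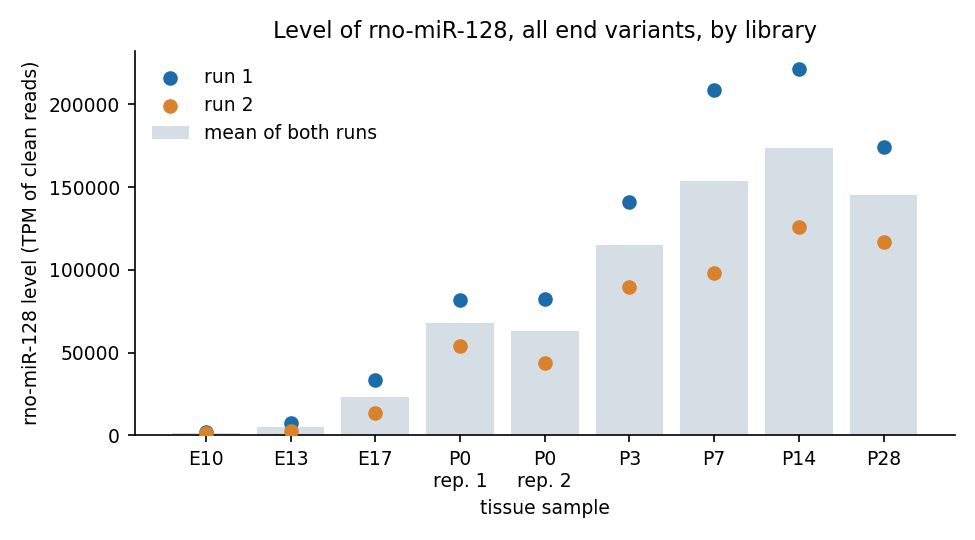
Level of rno-miR-128 over all end variants (y axis, TPM of clean reads, linear) in each tissue sample (x axis, in order of age). Bars are the mean of both runs, and points are the runs. Run 1 lies above run 2 in every sample, and the highest mean is 173758 TPM at P14.

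The mature tag was the most frequent one in every library, with 35.9% to 71.4% of the reads. It made up 65.1% of rno-miR-128 reads at E10, 55.5% at E13, 39.9% at E17, 40.3% and 36.2% in the P0 samples, 40.6% at P3, 49.5% at P7, 50.9% at P14 and 48.8% at P28. The E10 mean joins 58.7% in run 1 and 71.4% in run 2, and the E13 mean 57.9% and 53.2%. In E10 run 2 only 5.93% of clean reads were 18 to 20 nt long. The part of this in the E10 mean was not tested. The tag with 1 added T came second, with 10.8% at E10, 15.6% at E13, 31.6% at E17, 28.2% and 30.7% at P0, 30.4% at P3, 25.2% at P7, 23.2% at P14 and 27.9% at P28. Its share was thus lowest in the forebrain samples, where the mature tag was highest.

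Reads extended past the mature 3' end were most frequent from E17 to P3. The extended share was 24.0% of rno-miR-128 reads at E10, 26.6% at E13, 46.9% at E17, 44.7% and 49.5% in the P0 samples (47.1% ± 3.39, SD, n = 2), 47.3% at P3, 33.9% at P7, 30.1% at P14 and 36.4% at P28. The 4 samples from E17 to P3 did not overlap with the other 5, and this held in each run, where they lay at 43.0% to 50.1% and the others at 22.6% to 37.4%. These ages were picked after their values were seen, so the split has no test. Among 61 known miRNAs with at least 1000 reads in every library, 6 (9.84%), rno-miR-128 included, had all 4 of these samples above the other 5. There was no straight trend over the order of the ages: Pearson's r was 0.16 (exact permutation p = 0.676, adjusted over the 3 shares of ends 0.676) and Spearman's rho was 0.23 (exact permutation p = 0.558). In run 1 alone r was 0.14 and in run 2 alone 0.17. Over the 7 cortex samples from E17 on, r was -0.82 (exact permutation p = 0.0361, adjusted p = 0.108). Without E10 and P28 it was -0.15 (exact permutation p = 0.742). The samples from P7 on averaged 33.5% and the earlier ones 39.8%, a difference of -6.36 percentage points (exact permutation p = 0.381). Within the 7 cortex samples, where this split is the one seen in the values above, the difference was -13.7 percentage points (exact permutation p = 0.0286, the smallest this split allows, not adjusted over the 3 shares), which was looked at after the data were seen and supports no call.

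By single positions, the same split of the ages was seen at the ends 0, +1, +2 and +3, counted in nt from the mature 3' end. The mature 3' end held 66.8% of reads at E10 and 56.2% at E13, between 37.0% and 41.5% in the samples from E17 to P3, and 49.2% to 51.6% from P7 on. The E10 value joins 60.9% in run 1 and 72.6% in run 2. Position +1 held 20.2% and 23.5% in the forebrain samples, 36.4% to 39.6% from E17 to P3 and 27.6% to 33.0% later. Position +2 held 3.38% and 2.80%, then 6.91% to 8.83%, then 2.29% to 3.18%. None of the 7 positions with a mean share of at least 1% had a straight trend over all 9 samples (lowest adjusted exact permutation p = 0.494). Over the 7 cortex samples alone, r was 0.86 for the mature end, -0.78 for +1 and -0.84 for +2 (exact permutation p = 0.0218, 0.0488 and 0.0317), with adjusted p-values of 0.111 to 0.114. Position +3, the rarest of these, held 0.734% to 1.11% of reads in the libraries from E17 to P3 and 0.195% to 0.413% in the others, and its trend was not tested.

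**Figure D2:**
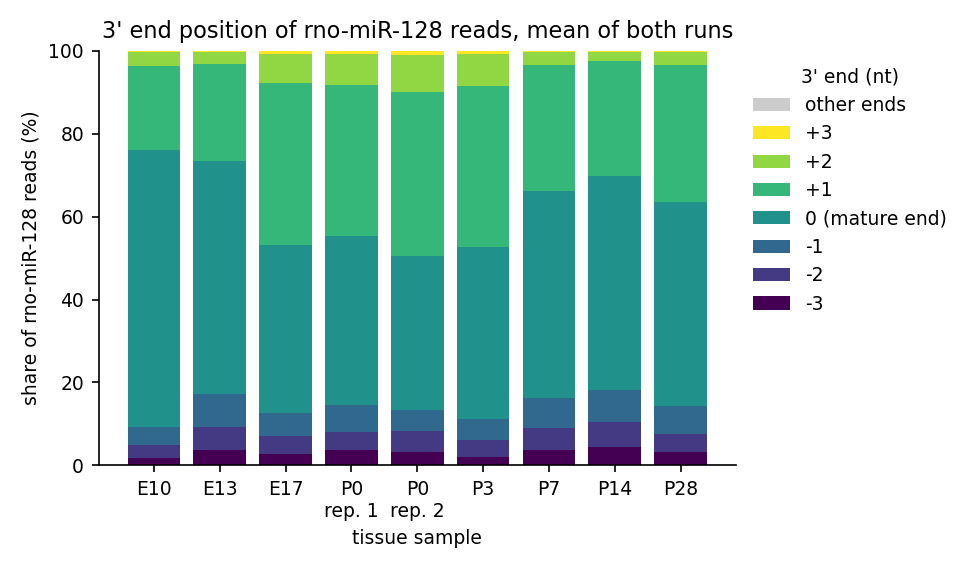
Share of rno-miR-128 reads (y axis, %) whose 3' end lies at each position relative to the mature end (colours, nt) in each tissue sample (x axis), mean of both runs. The band for +1 is widest from E17 to P3 (36.4% to 39.6%), where the band for the mature end is narrowest (37.0% to 41.5%).

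The bases added at the 3' end changed in kind with age: added T took a growing part of the extended reads and a terminal A a shrinking part. In the reads of all libraries pooled, to which the later ages give the most, the added bases were T in 71.1% of extended reads, A in 11.0%, TT in 5.81%, C in 4.20%, TA in 2.86% and AA in 1.69%. The order of TT and C differed between ages, and at E10 and E13 it was the other way round, with the tag of 2 added T at 0.698% and 0.599% of rno-miR-128 reads and the tag of 1 added C at 0.967% and 1.84%. At P14 these tags stood at 1.28% and 1.39%. Reads with 1 added A fell from 8.03% of all rno-miR-128 reads at E10 and 5.77% at E13 to 4.93% at E17, 5.84% and 6.25% in the P0 samples (6.05% ± 0.287, SD, n = 2), 5.65% at P3, 3.43% at P7, 2.66% at P14 and 3.62% at P28. Pearson's r with the order of ages was -0.85 (exact permutation p = 0.00413, adjusted over the 4 bases 0.0165), and Spearman's rho was -0.76 (exact permutation p = 0.0213, adjusted p = 0.0851). Within run 1 r was -0.84 and within run 2 -0.86 (exact permutation p = 0.00495 and 0.00371). Over the cortex samples alone r was -0.77 (exact permutation p = 0.052, adjusted p = 0.104), and without E10 and P28 it was -0.77 (exact permutation p = 0.0516). Leaving out E10 alone gave an adjusted exact permutation p of 0.0566, and leaving out P14 alone 0.0554. The samples from P7 on averaged 3.24% against 6.08% before, and all 3 lay below all 6 (exact permutation p = 0.0119, the smallest this split allows, adjusted p = 0.0476).

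In the means of both runs, reads with 1 added T were most frequent from E17 to P3, with little distance between P0 replicate 1 and P28. They numbered 11.1% of rno-miR-128 reads at E10, 15.8% at E13, 31.9% at E17, 28.4% and 31.3% at P0, 31.1% at P3, 25.4% at P7, 23.6% at P14 and 28.1% at P28, with r = 0.50 (exact permutation p = 0.169, adjusted p = 0.309). The libraries of P28 (27.5% and 28.7%) and of P0 replicate 1 (28.2% and 28.7%) overlapped, although the order held within each run. Reads with 1 added C held 1.01% at E10, 1.85% at E13, 2.34% at E17 and 2.13% and 1.99% at P0, then 2.07%, 1.60%, 1.41% and 1.20% from P3 to P28. From E17 on, the added C fell with age (r = -0.98, exact permutation p = 0.000794, adjusted p = 0.00317), whereas over all 9 samples r was -0.20 (exact permutation p = 0.591). Within run 1 alone r from E17 on was -0.89, and within run 2 alone -0.83 (exact permutation p = 0.00556 and 0.0266, not adjusted over the bases). Added G was rarest, and its highest share in a library rested on 48 reads in E10 run 2 (0.2%), against 3 reads in E10 run 1 (0.0147%).

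Taken as a part of the extended reads, the shift was larger than the spread of the P0 samples. Reads whose added bases end in A made up 42.4% of extended reads at E10, 28.0% at E13, 17.7% at E17, 23.0% and 22.0% at P0 (22.5% ± 0.759, SD, n = 2), 19.2% at P3, 13.5% at P7, 11.3% at P14 and 13.5% at P28. Pearson's r was -0.86 (exact permutation p = 0.00097, adjusted p = 0.00121 over the 5 overlapping kinds compared) and Spearman's rho -0.88 (exact permutation p = 0.00322). Extended reads with T alone went the other way, from 49.5% at E10 and 62.0% at E13 to 75.5% at E17, 69.6% and 71.6% at P0, 74.0% at P3, 80.2% at P7, 82.8% at P14 and 82.0% at P28 (r = 0.89, exact permutation p = 0.000546). E17 stood above both P0 samples for T alone and below them for A. Without E10 and P28 the correlations were -0.87 for A and 0.87 for T alone (exact permutation p = 0.0135 and 0.0119). Over the cortex samples alone they were -0.78 and 0.83, with exact permutation p-values of 0.0476 and 0.0302 and adjusted p-values of 0.0595. Each run gave the same sign for both kinds (-0.84 and -0.88 for A, 0.88 and 0.90 for T alone). For the samples from P7 on against the earlier ones the exact permutation p was 0.0476 for both kinds, with an adjusted p of 0.0595. As a part of all rno-miR-128 reads, additions ending in A held 10.1% at E10, 7.44% at E13, 8.29% at E17, 10.3% and 10.9% at P0, 9.09% at P3, 4.61% at P7, 3.41% at P14 and 4.91% at P28. On that scale they were no lower at P0 than at E10, while additions of T alone went from 11.9% at E10 to 31.1% and 35.5% at P0.

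**Figure D3:**
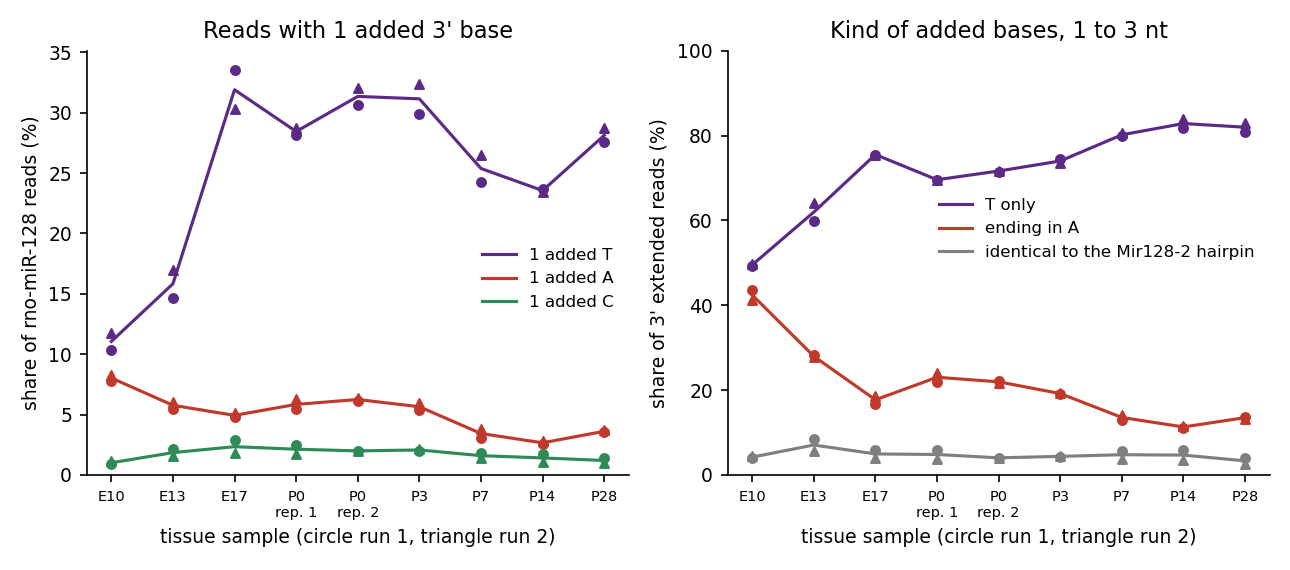
Left, share of all rno-miR-128 reads (y axis, %) with 1 added T, A or C in each tissue sample (x axis); right, share of the 3' extended reads (y axis, %) whose added bases are T only, end in A or are those of the Mir128-2 hairpin. Lines are means of both runs, and circles and triangles are runs 1 and 2. The A line on the right falls from 42.4% at E10 to 13.5% at P28.

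Split by what the hairpins encode, 49.2% of extended reads at E10 carried the bases of Mir128-1, 61.8% at E13, 74.8% at E17, 69.1% and 70.9% at P0, 73.3% at P3, 79.8% at P7, 82.5% at P14 and 81.7% at P28 (r = 0.90, exact permutation p = 0.000507, adjusted p = 0.00121). The bases of Mir128-2 were found in 3.32% to 7.05% of extended reads, with r = -0.49 (exact permutation p = 0.18). Leaving out E10 gave r = -0.73 (exact permutation p = 0.0314, adjusted p = 0.0314). Within run 2 alone the Mir128-2 part fell with age (r = -0.79, exact permutation p = 0.0083), and within run 1 r was -0.24 (exact permutation p = 0.54). The bases of neither hairpin fell from 46.6% of extended reads at E10 to 15.0% at P28 (r = -0.87, exact permutation p = 0.000931, adjusted p = 0.00121). Both the Mir128-1 and the neither-hairpin trend missed the threshold over the cortex samples alone and as samples from P7 on against earlier ones (adjusted exact permutation p = 0.0595 in each case). As a part of all rno-miR-128 reads, extensions of neither hairpin were 11.2% at E10, 8.29% at E13, 9.47% at E17, 11.7% and 12.4% at P0, 10.6% at P3, 5.26% at P7, 3.86% at P14 and 5.45% at P28. A T that an enzyme added and a T that Mir128-1 encodes give the same tag.

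Other known miRNAs were used to read the added A. For 49 miRNAs with at least 1000 reads in every library whose hairpins do not encode an A after the mature end, the share of reads with 1 added A was computed in the same way. It correlated negatively with age in 35 of the 49, in 7 of them (14.3%) with an exact permutation p under 0.05 and in 2 after adjustment over the 49. rno-miR-128 had the third lowest r of the 49, with an adjusted p over them of 0.0573. Its mean share of 5.13% ranked eleventh, against a median of 1.40%. The median over the 49 was 3.04% at E10, between 1.07% and 1.54% from E13 to P3 and between 0.736% and 0.971% from P7 on. The E10 value joins 2 unlike libraries: over 61 known miRNAs the median extended share was 8.88% in run 1 and 22.8% in run 2. The part of this difference in the E10 median of the added A was not tested. In rno-let-7d-5p, a member of the let-7 family, the share was 6.92% at E10, 8.66% at E17, 3.57% at P14 and 5.03% at P28 (r = -0.60, exact permutation p = 0.0921), and in rno-miR-29a-3p it was 1.03%, 2.26%, 0.677% and 1.51% (r = -0.32, exact permutation p = 0.401).

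Reads that stopped before the mature 3' end were the smaller class at every age. The trimmed share was 9.29% at E10, 17.2% at E13, 12.7% at E17, 14.6% and 13.4% at P0 (14.0% ± 0.841, SD, n = 2), 11.1% at P3, 16.2% at P7, 18.3% at P14 and 14.4% at P28. It did not follow the order of ages (r = 0.46, exact permutation p = 0.21, adjusted p = 0.333), and the samples from P7 on averaged 16.3% against 13.1% before (exact permutation p = 0.131). The low mean at E10 came from run 2, in which 2.06% of rno-miR-128 reads were trimmed against 16.5% in run 1. In that library 5.93% of all clean reads were 18 to 20 nt long, against 19.4% to 49.4% in the other 17, and the part of this in the trimmed share was not tested. At positions -1, -2 and -3 the ranges over samples were 4.27% to 7.93%, 3.14% to 6.08% and 1.87% to 4.49%. The files begin at 18 nt, so a read with the mature 5' end could be seen only when it lost at most 3 bases.

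Compared with other miRNAs, rno-miR-128 was extended more often and trimmed less often than the median miRNA. Its mean extended share of 37.7% ranked sixteenth among the 61 miRNAs with at least 1000 reads in every library, whose median was 12.6%. Its mean trimmed share of 14.1% ranked at place 50, against a median of 51.5%. In rno-let-7d-5p the extended share was 11.3% at E10, 17.6% at E17, 17.5% and 22.5% at P0, 19.8% at P3 and 8.64% at P14. In rno-miR-29a-3p it was at most 3.73% at any age. Low trimming was not particular to rno-miR-128: the trimmed share was 5.62% to 11.7% in rno-miR-29a-3p and 6.35% to 20.8% in rno-let-7d-5p over the samples. The median extended share over the 61 also differed between ages, from 7.93% at P14 to 16.7% at P3.

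The 5' end of rno-miR-128 was nearly always the mature one, and in the means of both runs at least 97.5% of reads at any age carried the mature seed. The share of reads with another 5' end was 2.48% at E10, 1.14% at E13, 0.964% at E17, 0.761% and 2.02% in the P0 samples (1.39% ± 0.887, SD, n = 2), 2.12% at P3, 0.783% at P7, 1.26% at P14 and 0.823% at P28. It had no trend with age (r = -0.45, exact permutation p = 0.222, adjusted p = 0.333). The rank of rno-miR-128 among the 61 miRNAs was 44, with a mean of 1.37% against a median of 2.38%.

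Libraries rather than ages separated the shifted 5' ends. In run 1 the share was 3.35% at E10, 2.33% in P0 replicate 2 and 2.44% at P3, and 0.236% to 0.370% in the other 6 libraries. In run 2 it lay between 1.15% and 2.25% in all 9. In the 3 high libraries of run 1 most of the shifted ends lay at position +2, which held 2.67%, 1.78% and 1.87% of reads in those 3 run 1 libraries, 0.128% to 0.231% in the other run 1 libraries and 0.408% to 1.48% in run 2. The tag acagtgaaccggtctcttt, which starts at +2, therefore reached 1107 TPM in P3 run 1 and 422 TPM in P3 run 2, but 205 TPM in P14 run 1 and 1035 TPM in P14 run 2. Over the 61 known miRNAs the median share at position +2 was 0.0222% to 0.0625% in every library, and rno-miR-128 was above 42 to 56 of them. The median share of all shifted 5' ends over the 61 was 3.57%, 2.82% and 2.97% in the same 3 run 1 libraries and 1.49% to 2.23% in the other run 1 libraries.

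**Figure D4:**
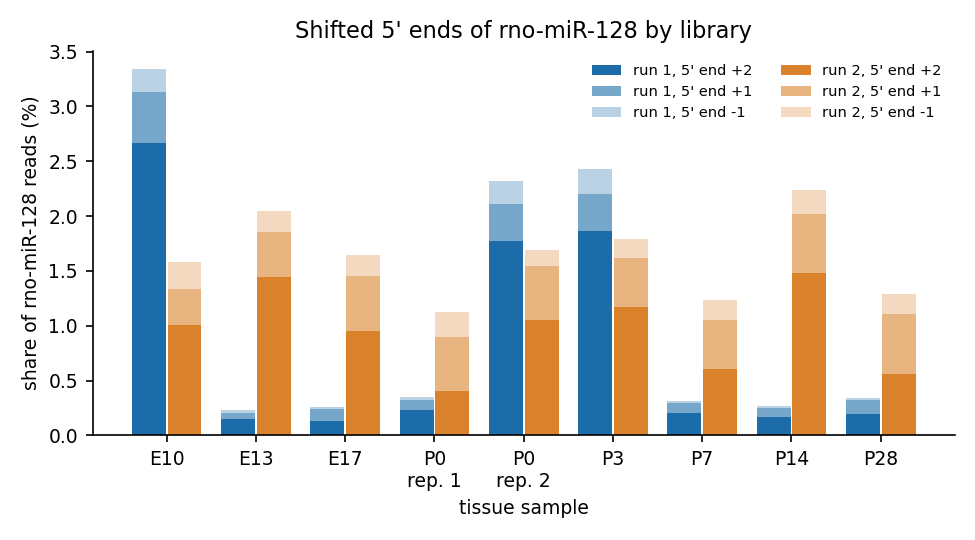
Share of rno-miR-128 reads (y axis, %) with a 5' end at +2, +1 or -1 nt from the mature end (shades, from dark to light) in each library (x axis, tissue samples; blue run 1, orange run 2). E10, P0 replicate 2 and P3 stand out in run 1, with 2.67%, 1.78% and 1.87% at +2.

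Other shifted 5' ends were rarer. Position -1 held 0.019% to 0.242% of reads, position +1 0.052% to 0.543%, and position +3 at most 0.0168%. Of the reads with an earlier 5' end, 82.9% had 1 added C, which both hairpins encode, and 10.1% had 1 added T, which neither encodes at that position. Among reads that reach the mature 3' end, the extended part was 43.9% ± 10.6 for the mature 5' end, 44.6% ± 10.9 for +2, 44.0% ± 13.6 for +1 and 42.5% ± 10.1 for -1 (mean ± SD over 18 libraries). The variants at +2 lay above the mature 5' end in 11 of the 18 libraries, those at +1 also in 11 and those at -1 in 3.

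The opposite arms of the hairpins, which are usually discarded when the miRNA is loaded, differ between the loci and were read to tell the loci apart. They are shown with their seeds in capitals.
rno-miR-128-1-5p: cGGGGCCGtagcactgtctga
rno-miR-128-2-5p: gGGGGCCGatgcactgtaaga
Nearly all 5p reads came from Mir128-2. rno-miR-128-2-5p stood at 7.30 TPM at E10, 17.0 at E13, 81.7 at E17, 128.1 and 97.2 in the P0 samples (113 ± 21.9, SD, n = 2), 234 at P3, 80.9 at P7, 140 at P14 and 124 at P28. rno-miR-128-1-5p stood at 1.16 TPM at E10, 0.888 at E13, 0.545 at E17, 0.973 in P0 replicate 1, 0.386 at P3, 1.33 at P7, 3.03 at P14 and 3.64 at P28. It had 0 reads in both libraries of P0 replicate 2, which allows up to 0.292 TPM in run 1 and 0.215 TPM in run 2. Mir128-1 gave 0.0% to 17.1% of the 5p reads of a library, with 17.1% at E10 run 2 (32 reads, against 155 of the other arm). The 5p arm of Mir128-2 was thus highest at P3, before the mature 3p sequence peaked, while the added bases of Mir128-1 outnumbered those of Mir128-2 at every age.

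**Figure D5:**
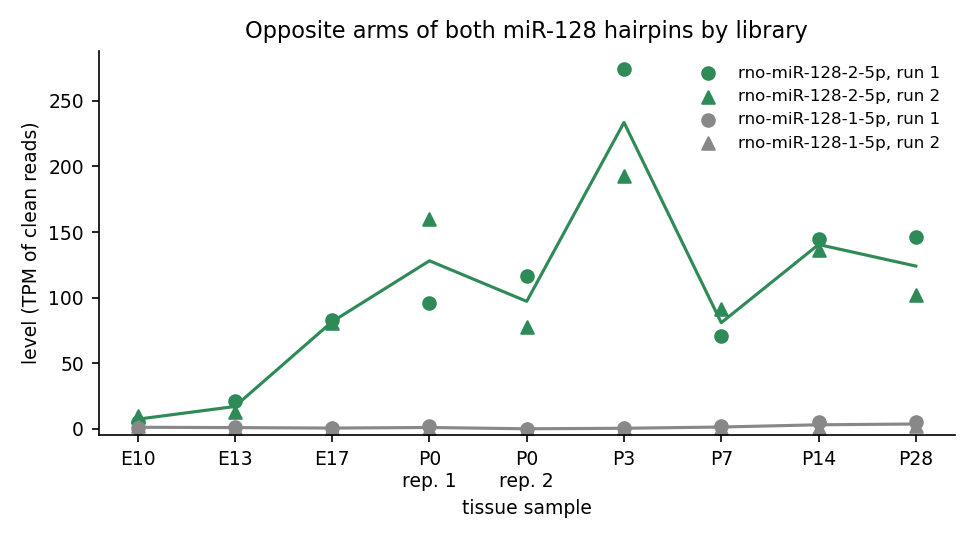
Levels of the 5p arms of both hairpins (y axis, TPM of clean reads, linear) in each tissue sample (x axis). Lines are means of both runs, and circles and triangles are runs 1 and 2. The Mir128-2 arm is highest at P3 (234 TPM), and the Mir128-1 arm stays at or below 3.64 TPM in the means.

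A count model was fitted across 4263 end variants of all known miRNAs, with the slope of the log2 level on the order of ages. Among the 48 end pairs of rno-miR-128, 37 reached 10 counts in 2 or more of the tissue samples and were tested. Of these, 21 rose and 0 fell (edgeR quasi-likelihood test with Benjamini-Hochberg adjustment over all variants), where 14.0% of all variants rose and 22.0% fell. The mature end pair rose by 0.96 ± 0.22 log2 units per age step (SE, edgeR adjusted p = 0.00442). The variant with 1 lost base rose by 0.99 ± 0.25 (edgeR adjusted p = 0.00687) and the variant at +1 by 0.90 ± 0.31 (edgeR adjusted p = 0.0352). The variant at +2 had a slope of 0.68 ± 0.41 (edgeR adjusted p = 0.212). Shared level changes of the whole miRNA enter these slopes. The count fell to 7 of 37 without E10, to 11 without E13 and to 12 without E17, to 5 of the 31 tested in run 1 alone and to 4 of 37 in the 7 cortex samples, and rose to 36 of 37 with DESeq2. Of all variants, 625 of 3709 rose in the cortex samples, 187 of 3142 in run 1 alone and 739 of 4263 with DESeq2, so in the cortex samples the share of rno-miR-128 variants that rose was no higher than that of all variants. The variant at +1 lost its call in run 1 alone, in the cortex samples and without E10, E13, E17 or P7 (edgeR adjusted p = 0.0592 to 0.15).

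The same data were used to ask whether the slope of an end variant on the order of ages differed from that of rno-miR-128 as a whole. edgeR's diffSpliceDGE called 0 of the 37, and 0 had an unadjusted p under 0.05, where 1.63% of all 4221 variants tested were called. limma's diffSplice on voom values called 0 of the 37, and 1 of all 4221. The slope relative to the miRNA was -0.03 ± 0.43 log2 units per age step at +1, -0.26 ± 0.49 at +2 and 0.02 ± 0.36 at the mature end (SE). Taken per miRNA, diffSpliceDGE called 106 of 400 (26.5%) and not rno-miR-128. The model sums all added bases at a position, so it does not bear on added A against added T. It fits a straight slope, so it does not bear on the higher shares of +1 and +2 from E17 to P3 either. With SEs of this size, the absence of calls does not show that the use of ends stayed the same. Over the 7 cortex samples diffSpliceDGE called 0 of all 3664 variants. There 4 of the 37 had an unadjusted p under 0.05, and 88 of all.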

How the data were processed

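Total RNA was size-selected and sequenced on an Illumina (Solexa) analyser. The authors removed adaptors, low quality reads and contaminants and deposited, for each library, unique clean tags with their length and read counts, without normalization. Mature and hairpin sequences were taken from RefSeq (GRCr8, 691 mature sequences). rno-miR-124-3p had no entry in this reference, so it is missing from the known miRNAs compared, and a comparison planned with it could not be made. Tags fitting 2 or more miRNAs were left out of the all-miRNA counts. Shares and TPM used single libraries, and both runs were averaged; counts of both runs were summed for edgeR 4.0.16 (TMM) in R 4.3.3, with limma 3.58.1 and DESeq2 1.42.0 as alternatives. Other steps used Python 3.11.15. Correlations had exact two-sided permutation tests over all orders of the samples, Benjamini-Hochberg adjusted within 3 shares, 7 positions, 4 added bases and 5 kinds of addition. Named were end positions with a mean share of at least 1%, the 8 most abundant tags, the most abundant tag with each shifted 5' end or single added base, and both hairpins' arms. Members and lists were chosen with earlier results of these data known. The added-base comparisons, those with other miRNAs and the ages E17 to P3 were chosen after the data were seen. Tag assignment, model fits and permutation tests were tested on simulated data. The counts simulated for the model fits had less spread than these data, so that test does not show what the fits can find here.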

Additional observations from a re-analysis of the deposited data

How the results depend on the processing

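The correlations of the extended, trimmed and shifted shares with age stayed past no threshold under all 19 alternatives each (single runs, runs summed, tags in both runs, at least 3 reads or at least 20 nt, last-base mismatches, fewer samples and P7 on against earlier). Combining the last split with the cortex samples alone, chosen after the data were seen, moved the difference in the extended share from -6.36 to -13.7 points (exact permutation p = 0.0286, unadjusted). The number of rising end variants of rno-miR-128 was 21 of 37 and became 5 of 31 in run 1 alone, 4 of 37 in the cortex samples from E17 on and 36 with DESeq2, and 7 to 25 when 1 tissue sample was left out. No variant of rno-miR-128 was called falling; the slope at +2, never called by edgeR, was -0.06 in the cortex samples. With the run as a replicate block over 18 libraries, 22 of 33 rose and 0 changed in usage, and the paired fit changed no call of a named end variant; it counts technical runs as samples, which makes its errors too small. The usage count was 0 under all 16 alternatives. Over all known miRNAs, 598 end variants rose and 939 fell in level, against 187 and 254 in run 1 alone, and 69 changed in usage, against 0 in run 1 alone and in the cortex samples, 1 without E10, 1 with limma and 111 with the block. The fall of the added A lost its call in the cortex samples (adjusted p = 0.104), without E10 and P28 (0.174), without E10 (0.0566) and without P14 (0.0554), all exact permutation p-values. The trends of A, T alone, Mir128-1 bases and bases of neither hairpin lost theirs in the cortex samples and as P7 on against earlier (both 0.0595), and the part of Mir128-2 bases passed the threshold in run 2 alone (0.0083) and without E10 (0.0314). The cause was not tested. With 1 tissue sample at 7 of the 8 ages, neighbouring ages cannot be compared.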
